A study of Mus musculus with 16 samples.

Results

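The 10 genes described here mark the epithelial or mesenchymal state of a cell: Cdh1, Epcam, Krt8, Krt18, Cdh2, Vim, Zeb1, Zeb2, Snai1 and Snai2. They were taken by symbol from tables of 17655 genes, and all 10 were listed. The cells, named preSC, were mouse precancerous cells for small cell lung cancer, described by the submitters as lung neuroendocrine cells positive for Chga. Every sample carried null alleles of Rb1 and Trp53 and a heterozygous null allele of Rbl2. The empty group (8 samples) was infected with an empty lentiviral control, and the Wnt5a group (8 samples) with a lentivirus for Wnt5a, a secreted Wnt ligand. All samples were treated with 1 µg/mL doxycycline during the last 48 hours of culture, so no group without doxycycline was compared. The labels do not say whether the infected cells were pools or clones, nor whether samples came from separate cultures. The p-values below therefore measure only the spread between averages of these samples, which may be technical.

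Epithelial cells hold to each other through E-cadherin, the product of Cdh1, and through tight junctions and desmosomes, and they carry keratin filaments. Mesenchymal cells have vimentin filaments instead, make matrix proteins such as fibronectin and often express N-cadherin, the product of Cdh2. In the epithelial-mesenchymal transition the zinc-finger factors Snai1, Snai2, Zeb1 and Zeb2 bind E-box letters in DNA and repress Cdh1 and other epithelial genes. Neuroendocrine lung cells are epithelial cells that also express many neural genes, Cdh2 among them.

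Samples held 7526676 to 8859862 recovered reads. Within each group samples 1 to 4 differed from each other by about sampling noise, and so did samples 5 to 8. The dispersion between 2 samples was 0.987 to 1.05 times counting noise in the 24 such pairs and 5.23 to 5.44 times in the 32 other pairs within a group. Samples 1 to 4 were therefore averaged as library A and samples 5 to 8 as library B, which gives n = 2 per group. Values are normalised read counts, that is, gene reads over a scaling factor for each sample. Wnt5a itself was at 144 and 99.8 in empty libraries A and B and at 1049 and 1509 in Wnt5a libraries A and B, a difference of 3.38 in log2 units (adjusted p = 0.00100 by limma). With 2 libraries against 2, the smallest p an exact two-sided permutation test can give is 0.333, so the calls below come from limma fitted to all 12357 genes with a mean value of at least 10. Differences are on the log2(value + 1) scale, so a change in a low gene appears smaller than it is.

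The libraries had the markers of the labelled cell type and low levels of most markers of others. All 12 neuroendocrine markers were tested. Chga, the marker named in the labels, was at 3007 to 4370. The 12 markers summed to 72654 and 70583 without and to 69446 and 66093 with Wnt5a. Lower in the Wnt5a libraries were 10 of the 12, against 6095 of all 12357 genes tested. Of the 12, 0 passed the threshold, and 4 (Chga, Calca, Uchl1 and Resp18) did with the replicate block, against 17% of all genes. Resp18 lies on chromosome 1, whose tested genes had a median of -0.17 in log2 units. The 4 leukocyte markers listed summed to 12.1 to 17.1, the 3 endothelial markers to 2.58 to 4.41 and the 6 alveolar and airway markers to 48.5 to 54.2. The 6 non-neuroendocrine small cell markers summed to 217 and 223 without and to 233 and 231 with Wnt5a. Of these, 3 were tested and 0 passed in either fit. All 3 had higher values with Wnt5a, as did 6262 of all 12357 genes tested. Myc had a mean value of 174 over the 16 samples. Of the 7 fibroblast markers listed, 6 were too low to test, and the defining collagens Col1a1, Col1a2 and Col3a1 were at most 3.56. The seventh, the proteoglycan gene Dcn, was at 597 and 340.2 without and 241 and 246 with Wnt5a (limma adjusted p = 0.131, and 0.0145 with the block), and its part in the results below was not tested. Bulk RNA cannot tell fewer cells of a type from less RNA per cell.

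The 10 genes spanned the range from among the most abundant transcripts of these cells to none detected. Levels of different genes were compared per kilobase of the longest annotated transcript. In the empty libraries Krt8 was highest, at 5784 ± 357 normalised reads per kb (SD, n = 2). Epcam followed at 2932 ± 138, Krt18 at 2011 ± 293 and Cdh1 at 1713 ± 49.4. These epithelial genes all stood at or above the 99.1 percentile of 17347 genes with a transcript length. Cdh2 was next at 428 ± 15.3, at the 92.4 percentile. The transcription factors lay far below: Zeb1 at 42.9 ± 0.551, Zeb2 at 12.9 ± 1.37, Snai2 at 5.82 ± 0.134 and Snai1 at 3.20 ± 0.530. Vim was last, with 0 reads.

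On this length the order in the Wnt5a libraries differed by 1 exchange. Snai2, at 12.5 ± 2.89 reads per kb, stood above Zeb2, at 5.87 ± 0.280, the reverse of their order in the empty libraries. With the median length of a gene's transcripts this exchange was not seen: Zeb2 stood above Snai2 in both groups, at 66.7 against 5.82 in the empty and 30.4 against 12.5 in the Wnt5a libraries. Krt18 and Cdh1 were neighbours whose levels overlapped in the Wnt5a libraries (1763 and 1872 against 1587 and 1788 reads per kb). In the empty libraries they did not overlap, but their means differed by about the SD of Krt18. The other neighbours did not overlap within either group. The order among the 4 epithelial genes depends on the length too: with the median length Epcam stood above Krt8 and Cdh1 above Krt18. Per kb, E-cadherin transcripts exceeded N-cadherin transcripts by 4.19 and 3.82 times in the empty libraries and by 4.36 and 3.82 times with Wnt5a, so the ratio overlapped between groups.

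**Figure D1:**
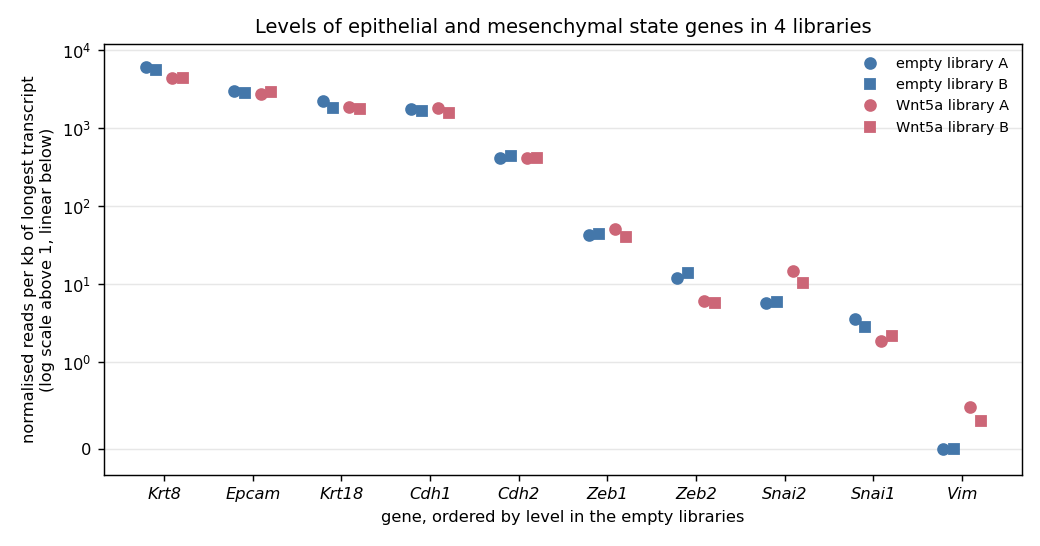
Normalised reads per kb of the longest transcript (vertical axis, logarithmic above 1 and linear below) for each of the 10 genes in the 4 libraries, with empty libraries in blue and Wnt5a libraries in red. The epithelial genes lie at 1587 or more in all libraries, Cdh2 between 410 and 439, the 4 repressors at 51.4 or less and Vim at 0.482 or less, and Zeb2 and Snai2 exchange places between the groups, which they do not with the median transcript length.

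Of the 10 genes, 8 passed the filter on low values, and 1 of these 8, Zeb2, passed the threshold of a limma adjusted p under 0.05 between the groups. Among all genes tested 2.06% passed, 1.38% higher and 0.672% lower in the Wnt5a libraries. With the replicate number as a block 3 of the 8 passed (Krt8 and Zeb2 lower, Snai2 higher), against 17% of all genes, 8.68% higher and 8.27% lower. On recovered reads edgeR called 1 of the 8 (Zeb2), against 1.99% of all genes, edgeR with the block 3, against 17.2%, and DESeq2 2 (Krt8 and Zeb2), against 4.35%. The median log2 difference of the 8 was -0.06, beside 0.0026 for all genes tested. The 16 samples did not overlap between groups for 2 of the 8, Krt8 and Zeb2, against 12.4% of all genes. The genes lie on chromosomes 2, 8, 15, 16, 17 and 18, whose median log2 differences lay between -0.015 and 0.0067; chromosomes 1, 11 and 19, with medians of -0.17, 0.17 and 0.36, hold none of them.

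Cdh1 encodes E-cadherin, the adhesion molecule of epithelial adherens junctions. Its normalised read count ranged over 7352 to 7861 in the 8 empty samples (median 7598) and over 6984 to 8057 in the 8 Wnt5a samples (median 7443). The Wnt5a samples spanned the whole range of the empty ones. By library it was 7742 and 7433 in empty A and B and 7921 and 7031 in Wnt5a A and B. The log2 difference was -0.02 (95% interval -0.24 to 0.20; limma adjusted p = 0.944). It was higher in the Wnt5a library within set A, at 1.02 times the empty one, and lower within set B, at 0.946 times.

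Epcam encodes a surface glycoprotein of epithelial cells. It ranged over 5724 to 6210 in the empty samples (median 6012) and over 5470 to 5926 in the Wnt5a samples (median 5723), and the groups overlapped. The log2 difference was -0.07 (95% interval -0.26 to 0.13; limma adjusted p = 0.790). As for Cdh1, the direction differed between sets: Wnt5a library A was at 0.899 times and Wnt5a library B at 1.02 times its empty counterpart.

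Krt8 and Krt18 encode the type II and type I keratins that pair into the filaments of simple epithelia, and they are immediate neighbours in RefSeq gene order on chromosome 15. Krt8 ranged over 10671 to 11921 in the empty samples (median 11329) and over 8575 to 8814 in the Wnt5a samples (median 8692). All 8 Wnt5a samples lay below all 8 empty samples. The mean was 11326 ± 700 without and 8696 ± 40.9 with Wnt5a (SD, n = 2 libraries each), with a log2 difference of -0.38 (SE 0.09; 95% interval -0.59 to -0.17). It missed the threshold without the block (limma adjusted p = 0.0973) and passed it with the block (0.00453). The Wnt5a library was at 0.738 times the empty one within set A and at 0.800 times within set B.

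Krt18 ranged over 2530 to 3228 in the empty samples (median 2877) and over 2494 to 2752 in the Wnt5a samples (median 2598), with overlap. Empty library A stood above the other libraries, at 3187 against 2591 in empty B and 2690 and 2534 in Wnt5a A and B. The log2 difference was -0.14 (95% interval -0.40 to 0.12; limma adjusted p = 0.639, and 0.156 with the block). Per kb the ratio of Krt8 to Krt18 was 2.72 and 3.07 without and 2.38 and 2.51 with Wnt5a, so the 2 groups did not overlap in this ratio. Among windows of 50 bases of the longest Krt8 transcript, 73.1% were found in no other annotated gene, the rest being shared with the pseudogene Krt8-ps. Reads from the gene and its copy may therefore be split in ways the files do not show. For the other 9 genes at least 99.0% of windows were unique.

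E-box letters of the kind the Snail and Zeb repressors bind were looked for in the 250 bases before the start site of the members, since the epithelial genes and their repressors were measured side by side. RefSeq promoter windows (GRCm38.p6) matched 6 of the 10 genes: Epcam, Krt8, Krt18, Vim, Zeb2 and Snai1. The letters CACCTG, or CAGGTG as read on the other strand, occurred in the first listed window of 4 of the 6, against 17.1% of 27025 genes. Epcam held 2 matches, 187 and 19 bases before the start, as 2.06% of genes held 2 or more. Krt8 held 1 match at 111 bases and Krt18 1 match at 214 bases before the start. The windows of these 3 epithelial genes are shown because their transcripts are the abundant ones here, with the E-box letters in capitals. That of Epcam is chr17:87635729-87635978 on the plus strand, that of Krt8 chr15:102004343-102004592 on the minus strand and that of Krt18 chr15:102027966-102028215 on the plus strand.
Epcam: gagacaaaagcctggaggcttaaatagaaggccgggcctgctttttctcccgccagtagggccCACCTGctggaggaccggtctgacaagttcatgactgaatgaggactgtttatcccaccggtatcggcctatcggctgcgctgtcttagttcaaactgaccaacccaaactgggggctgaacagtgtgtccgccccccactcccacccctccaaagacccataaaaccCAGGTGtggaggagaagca
Krt8: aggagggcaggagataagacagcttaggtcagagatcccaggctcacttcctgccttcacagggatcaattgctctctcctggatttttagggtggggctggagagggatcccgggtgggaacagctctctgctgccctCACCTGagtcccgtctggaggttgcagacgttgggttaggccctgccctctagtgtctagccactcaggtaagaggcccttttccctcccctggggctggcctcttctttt
Krt18: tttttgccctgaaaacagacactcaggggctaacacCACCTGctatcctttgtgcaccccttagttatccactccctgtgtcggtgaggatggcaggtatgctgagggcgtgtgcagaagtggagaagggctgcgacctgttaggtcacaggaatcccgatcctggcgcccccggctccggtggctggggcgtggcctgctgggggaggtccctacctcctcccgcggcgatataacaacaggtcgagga
Snai1 held 1 match, 126 bases before its start, and the windows of Vim and Zeb2 held none of these letters. A match is a run of letters and not a measured binding site, and no match says only that the letters are not in the window.

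Cdh2, the gene of N-cadherin, ranged over 1969 to 2181 in the empty samples (median 2082) and over 1909 to 2080 in the Wnt5a samples (median 1995). The samples overlapped between groups. The log2 difference was -0.05 (95% interval -0.22 to 0.12; limma adjusted p = 0.808). The 2 Wnt5a libraries, at 1985 and 2011, lay just below the 2 empty ones, at 2022 and 2127, as the libraries of 44.2% of all genes did not overlap.

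Vim, the gene of the mesenchymal filament protein vimentin, was close to absent. It had 0 reads in all 8 empty samples, that is 0 of 62813091 reads. A floor of 3 counts over the group is 0.0478 RPM, that is, reads in 1000000. The exact Poisson 95% interval reached up to 0.0587 RPM, and both cover counting error only. In the Wnt5a samples Vim had 10 of 70418339 reads, or 0.142 RPM with an exact Poisson 95% interval of 0.0681 to 0.261. Of these, 6 lay in Wnt5a library A and 4 in library B, with 1 read in each of 7 samples and 3 in the other. The samples therefore did not overlap, but at a level where single reads set the values, so Vim was not tested and no fold is given. Of the genes around it, 3 were well above 0: Rsu1 at 278 to 320 and Trdmt1 at 39.2 to 49.0 on one side and Hacd1 at 125 to 165 on the other, where St8sia6 lies between at 0 to 0.254.

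Zeb2, a zinc-finger repressor of Cdh1, was the only one of the 8 tested genes past the threshold without the block. It ranged over 103 to 137 in the empty samples (median 118) and over 44.2 to 61.2 in the Wnt5a samples (median 52.9). All 8 Wnt5a samples lay below all 8 empty samples. Library values were 109 and 126 in empty A and B and 55.4 and 51.8 in Wnt5a A and B, from 394, 496, 236 and 221 reads. Zeb2 fell by 54.4%, a log2 difference of -1.11 (SE 0.13; 95% interval -1.43 to -0.79; limma adjusted p = 0.0120). In the order of log2 differences it was number 35 from the lowest among the 12357 genes tested. The fall was present within both sets, to 0.510 times the empty level in A and 0.410 times in B. Without the filter on low values, which adds genes to the adjustment, the adjusted p was 0.0549.

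The gene listed next to Zeb2, Zeb2os, is named as its opposite-strand transcript. It had 12 and 12 reads without and 4 and 7 with Wnt5a. The strand setting of the counting is not given in the sources used here, so reads from the opposite strand cannot be told apart from those of Zeb2. Of the next genes on either side, Gtdc1 was at 160 and 145 against 124 and 118, and Acvr2a was at 886 and 748 against 793 and 792.

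Zeb1, the other Zeb repressor, ranged over 223 to 267 in the empty samples (median 249) and over 197 to 316 in the Wnt5a samples (median 273). The Wnt5a samples spanned the whole range of the empty ones. The log2 difference was 0.08 (95% interval -0.22 to 0.39; limma adjusted p = 0.841). Wnt5a library A was at 1.21 times and Wnt5a library B at 0.928 times its empty counterpart. Per kb Zeb1 exceeded Zeb2 by 3.57 and 3.13 times in the empty libraries and by 8.47 and 7.08 times with Wnt5a. Of the summed normalised reads of both genes, Zeb2 held 30.6% and 33.4% in the empty libraries and 15.7% and 18.2% with Wnt5a.

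Snai2, also known as Slug, was low in both groups and higher with Wnt5a. It ranged over 5.12 to 16.3 in the empty samples (median 11.7) and over 14.97 to 34.9 in the Wnt5a samples (median 24.9). The ranges overlapped. By library it had 42 and 47 reads in empty A and B and 125 and 90 reads in Wnt5a A and B. The mean value was 11.8 ± 0.270 without and 25.2 ± 5.83 with Wnt5a (SD, n = 2 libraries each), with a log2 difference of 1.02 (SE 0.23; 95% interval 0.46 to 1.58). The limma adjusted p was 0.0944, and 0.0213 with the replicate block, so with all libraries kept as averages the call rests on the block. As a share of all reads it was 1.42 RPM (exact Poisson 95% interval 1.14 to 1.74) without and 3.05 RPM (2.66 to 3.49) with Wnt5a, where the interval covers counting error only.

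Snai1, the other Snail repressor, did not reach the minimum for testing. It had 21 and 18 reads in empty A and B and 13 and 15 reads in Wnt5a A and B. That was 0.621 RPM (0.442 to 0.849) without and 0.398 (0.264 to 0.575) with Wnt5a, with overlapping exact Poisson intervals. Both Wnt5a libraries lay below both empty ones, at 0.527 times within set A and 0.769 times within set B, while the samples overlapped. No test of Snai1 was made. Its relative Snai3 was at 52.4 and 60.6 without and 44.9 and 55.5 with Wnt5a (limma adjusted p = 0.718). The summed value of the 3 Snail genes was 69.8 and 77.2 against 77.3 and 80.2.

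**Figure D2:**
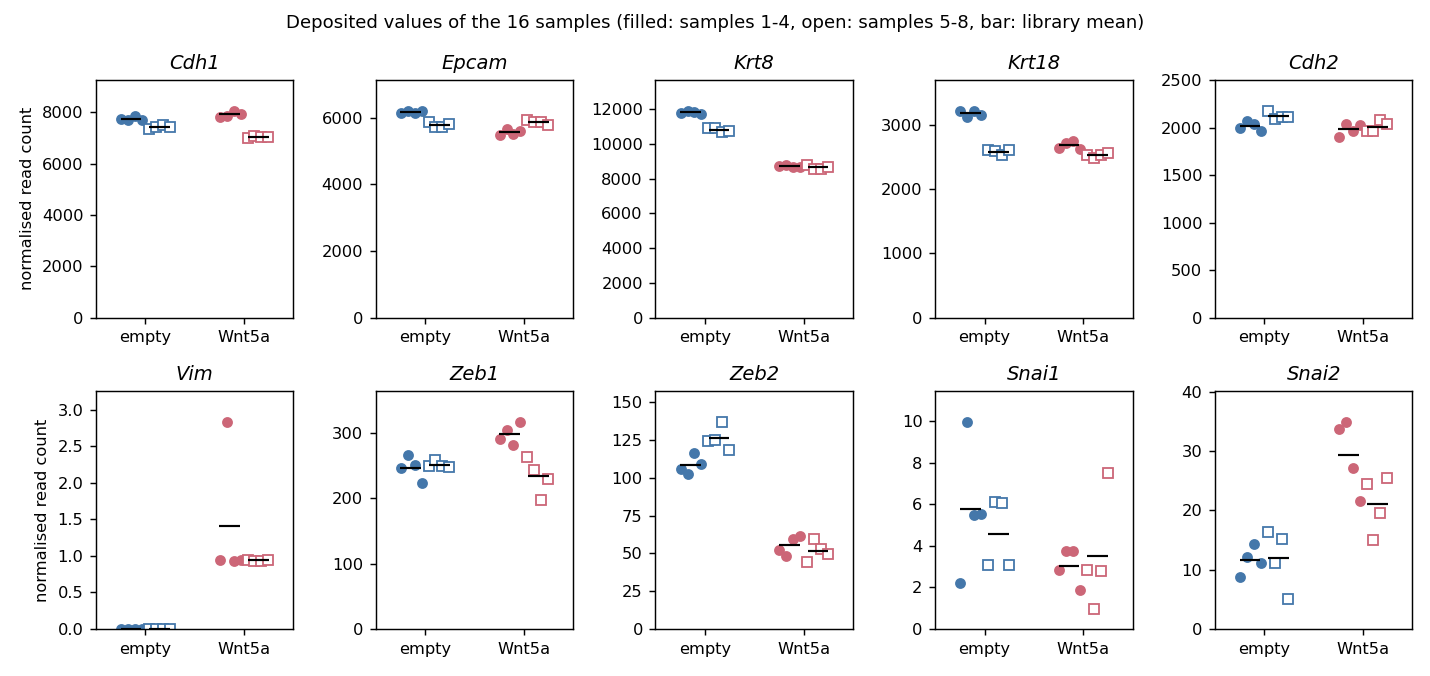
Deposited normalised read counts (vertical axis, from 0) of the 10 genes in the 16 samples, with empty in blue, Wnt5a in red, samples 1 to 4 filled, samples 5 to 8 open, and a bar at each library mean. Krt8 and Zeb2 separate the groups sample by sample, Cdh1 differs more between the libraries of each group than between the group means, and Vim rests on 1 or 3 reads per Wnt5a sample.

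**Figure D3:**
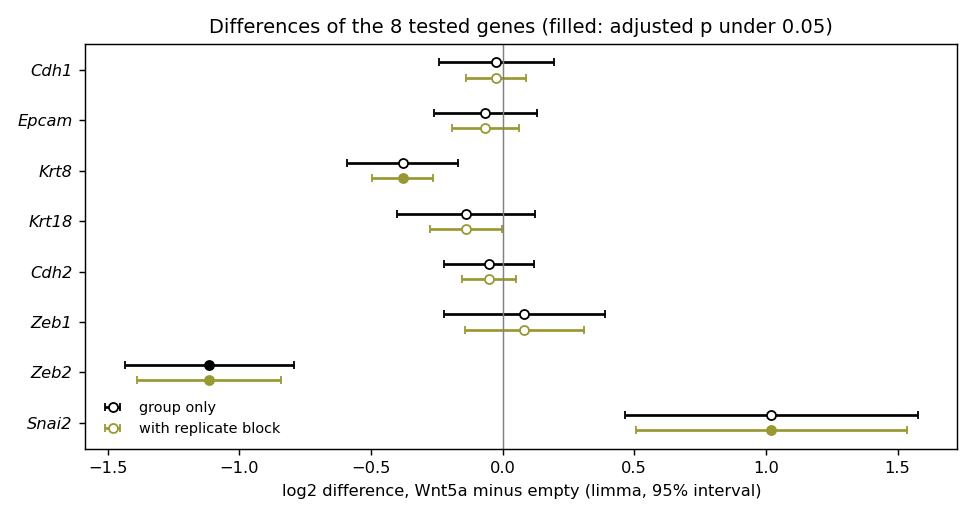
Log2 difference (Wnt5a minus empty, horizontal axis) with its 95% interval from limma for the 8 tested genes, without and with the replicate block; filled points have an adjusted p under 0.05. Zeb2 passes in both fits, Krt8 and Snai2 with the block, and the intervals of Cdh1, Epcam, Cdh2 and Zeb1 include 0 in both.

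The genes were also compared between library sets A and B. In a fit with group and set, 7.41% of all genes passed the threshold between sets (limma), 3.33% higher and 4.09% lower in set B, while 0 of the 8 tested members did. edgeR and DESeq2 also called 0. At an unadjusted p under 0.05 there were 2 of the 8, Cdh1 and Krt18, a share near that of all genes (3547 of 12357, or 28.7%). Krt18 was lower in set B by a log2 difference of -0.19 (adjusted p = 0.0860) and Cdh1 by -0.12 (adjusted p = 0.170). The labels do not say what the sets are.

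In all, 11 lists of related genes were examined beside the 10, with 122 further genes tested. Of these 4 passed the threshold (3.28%, against 2.06% of all genes): Cdh8, Cdh6 and Ina were higher and Cdh18 lower in the Wnt5a libraries. With the replicate block 28 passed (8 higher and 20 lower, 23.0% against 17% of all genes). The median log2 difference of the 122 was -0.07.

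Other epithelial genes were abundant in both groups. In the list of epithelial junctions and polarity 24 of 25 genes were tested and 0 passed, with a median of -0.04. The plaque protein genes Dsp (4333 to 5188 without and 3999 to 4372 with Wnt5a) and Jup (3546 to 3555 against 3257 to 3618) and the junctional adhesion gene F11r (1804 to 2159 against 1637 to 1918) were highest. With the block 6 of the 24 passed, 1 higher and 5 lower. Dsg2, at -0.25, Cldn6, at -0.27, and Ppl, at -0.20, were lower, as were Dsp and F11r, both just inside the threshold at 0.0460 and 0.0494. F11r lies on chromosome 1, and its log2 difference of -0.16 is close to that chromosome's median of -0.17.

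Of the 14 epithelial transcription and splicing factors tested, 0 passed with or without the block, with a median of -0.07. Foxa1 was at 3775 to 4094 over all libraries, the lung lineage factor Nkx2-1 at 2719 to 3159 and the epithelial splicing factor Esrp1 at 2461 to 2861. Of 11 other epithelial surface proteins and proteases 0 passed in either fit, with a median of -0.08; the surface glycoprotein gene Cd24a was at 8989 to 9647, and the protease inhibitor genes Spint2 and Spint1 at 3359 to 4097 and 1907 to 2313.

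Among other keratins 3 of the 4 listed were tested. All 3 had lower values with Wnt5a, as did Krt8, Krt18 and 6095 of all 12357 genes tested. The type II keratin Krt7 was at 9770 and 9314 without and 8543 and 8482 with Wnt5a, a difference of -0.16 in log2 units (adjusted p = 0.403 by limma, and 0.0498 with the block). Krt80 was at -0.54 (0.160, and 0.0172 with the block) and Krt10 at -0.54 (0.235, and 0.0788 with the block). Krt19, a keratin of many simple epithelia, had at most 2 reads in any library.

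Filament genes other than keratins and Vim included neural ones. Ina, the gene of the neuronal filament protein alpha-internexin, rose from 425 and 453 to 642 and 607, a difference of 0.51 in log2 units (adjusted p = 0.0331 by limma). Ina lies on chromosome 19, where the median difference was 0.36, and its call was lost without Wnt5a library A (0.146) or B (0.103), without the filter (0.0774), with a minimum of 50 (0.0522) and without trend (0.0850). Nes, the gene of the progenitor filament protein nestin, was at 3.31 and 7.89 without and 25.1 and 19.0 with Wnt5a, a difference of 1.88 in log2 units (0.0674, and 0.0150 with the block). Synm was at -0.82 (0.150, and 0.0485 with the block). The lamins Lmnb1, Lmna and Lmnb2 differed by 0.13, 0.06 and 0.07, with adjusted p of at least 0.515.

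Among the other cadherins listed 3 of 11 tested genes passed the threshold, against 2.06% of all genes. Cdh8 rose from 49.1 and 51.4 to 226 and 173, a difference of 1.95 in log2 units (adjusted p = 0.00219 by limma). Cdh6 rose from 6.34 and 11.2 to 40.2 and 35.9, a difference of 2.04 in log2 units (adjusted p = 0.0200 by limma). Cdh18 fell from 161 and 159 to 95.6 and 82.7, a difference of -0.84 in log2 units (adjusted p = 0.0216 by limma). The Cdh18 call was lost without Wnt5a library B (0.0841), and without the filter on low values those of Cdh6 (0.0865) and Cdh18 (0.0721) were. All 3 encode type II cadherins, adhesion molecules found in the nervous system among other tissues, and the groups did not overlap in any sample. With the block Cdh9 (-0.60), Cdh22 (-0.21) and Cdh20 (-0.24) were also lower and Cdh11 (1.11), a cadherin of mesenchymal cells, was higher, with adjusted p of 0.00340, 0.0257, 0.0241 and 0.0423. Cdh20 lies on chromosome 1 with its lower median. Cdh13 had the highest value, at 4483 and 2691 without and 3522 and 2800 with Wnt5a (adjusted p = 0.845); without empty library B it was at -0.51 (adjusted p = 0.0183), and without empty library A at 0.22.

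Of the catenins that bind cadherins, listed together with the vinculin gene Vcl, 8 were tested and 0 passed, with a median of -0.15. Lower values with Wnt5a were seen for 7 of the 8, against 6095 of all 12357 genes tested. Their median absolute difference was 0.147, beside 0.105 for all genes tested. Ctnnb1, the gene of beta-catenin, was at 12690 and 12678 against 12853 and 12818. Ctnna1 was at -0.13 and Pkp4 at -0.15 on the log2 scale. With the block Ctnna2 (-0.31, adjusted p = 0.00774) and the vinculin gene Vcl (-0.21, 0.0225) were lower.

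Most of the mesenchymal genes listed fell below the filter on low values. Of 25 listed, 21 were too low to test, with group means of at most 11.3, and 9 had at most 3 reads in every library. Col1a2, Sparc, Postn, Axl, Lox and Tnc had, like Vim, 0 reads in both empty libraries. Their few reads were all in the Wnt5a libraries. Their mean values over the 16 samples went from 0.0584 (Sparc and Axl) to 0.353 (Tnc), beside 0.587 for Vim. Of the 4 tested, 0 passed in either fit. Fn1, the fibronectin gene, was at 60.4 and 115 without and 129 and 111 with Wnt5a (limma adjusted p = 0.449), and passed without empty library B (0.98, adjusted p = 0.000461). Vcan, the gene of the matrix proteoglycan versican, was at 70.9 and 139 against 76.3 and 78.5, and passed without empty library A (-0.84, adjusted p = 0.00235) but not without B (0.13).

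Of 14 other mesenchymal transcription factors listed, 8 were too low to test, among them Twist1 with 0 reads in the empty libraries. Of the 6 tested 0 passed, with a median of -0.17. The E-proteins Tcf3 and Tcf4, which bind E-boxes in many cell types, were at 976 to 1166 and 913 to 1094; Tcf4 was at -0.21 (adjusted p = 0.0226 with the block). Foxc1 was at 372 to 477.

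Of 20 cofactors and regulators of the Snail and Zeb proteins 19 were tested and 0 passed, with a median of -0.01. Ctbp1, a corepressor that Zeb proteins bind, was at 2713 and 2900 against 2716 and 2907. The kinase gene Csnk2a1 was at 2657 to 2826. With the block Pak1 (-0.20, adjusted p = 0.0494) and Fbxw7 (-0.20, 0.0399) were lower and Suz12 (0.21, 0.0309), which lies on chromosome 11 with its higher median, was higher.

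TGF-beta is a main inducer of the Snail and Zeb genes in many epithelia. Of 12 genes of its pathway tested 0 passed, with a median of -0.11. Lower values with Wnt5a were seen for 11 of them, against 6095 of all 12357 genes tested. The median absolute difference of the 12 was 0.127, beside 0.105 for all genes tested. The mediators Smad2 and Smad4 and the inhibitor Skil were at 975 to 1137, 993 to 1079 and 1037 to 1179. With the block the ligand Tgfb1 (-0.49, adjusted p = 0.0146), the co-receptor Tgfbr3 (-0.37, 0.0110) and the inhibitor Ski (-0.20, 0.0457) were lower. Smurf2 (0.27, 0.0111), on chromosome 11, was higher.

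**Figure D4:**
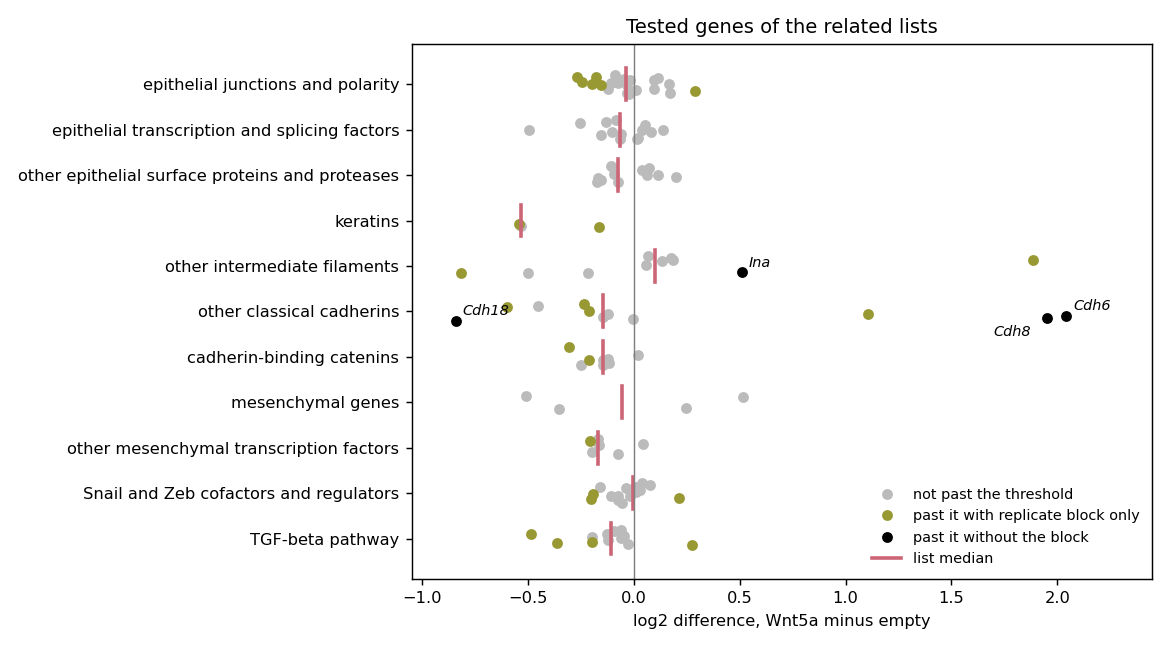
Log2 difference (Wnt5a minus empty, horizontal axis) of each tested gene in the 11 related lists, with the list median as a red bar; black points pass the threshold without the replicate block and olive points only with it. The 4 black points are Cdh8, Cdh6, Ina and Cdh18, and the medians of the lists lie between -0.54 (keratins, 3 genes) and 0.10 (other intermediate filaments).

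The gene most like Cdh1 over the 4 libraries, by Euclidean distance between mean-centred log2 values among 129 tested genes of the lists and the members, was Evpl, the gene of the junctional plaque protein envoplakin, at a distance of 0.0232. Jup (0.0526) and Fbxo11 (0.0593) came next. Vim was too low for such a comparison.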

How the data were processed

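Each of 16 samples had one deposited table of normalised values. The submitters' processing notes name TopHat, Bowtie, HTSeq and DESeq2, without versions; build, annotation and strand setting are not given in the sources used here. The deposited values are a signal, the reads of each gene over a scaling factor of that sample: 100% were whole multiples of one step per file (tolerance 0.01 of a step), so whole reads were recovered. Libraries A and B of a group are the means of samples 1 to 4 and 5 to 8. Genes with a mean value of at least 10 were tested with limma 3.58.1 in R 4.3.3 (moderated with a mean-variance trend) on log2(value + 1); p-values were adjusted by Benjamini-Hochberg over the 12357 genes. Alternatives were a pseudocount of 0.1 or 10, a minimum of 50 or none, other normalizations, no trend, 16 separate samples, a replicate block, leaving out each library in turn, and, on recovered reads, edgeR 4.0.16 and DESeq2 1.42.0. The replicate block pairs the 2 A libraries and the 2 B libraries through the sample numbers shared by the groups. Deviations of same-numbered samples from their group means correlated at 0.175 to 0.220 across genes in all 8 numbered pairs (0.440 between library sets). With 2 libraries per group the mean deviations of A and B are opposite, so these pairs are not independent support for pairing. Members and lists were chosen with earlier results of these data known. Named list genes were those past the threshold, the 3 of highest value per list and up to 4 per list past it with the block only; neighbours, marker genes, Snai3, Krt19, Twist1 and genes without reads were named after their values were seen. A few genes that this rule names are not reported here. Scripts were tested on simulated data.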

Additional observations from a re-analysis of the deposited data

Results flagged for a closer look

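In 3 of 19 sets of 8 samples of a group, 1 sample stood apart from the rest by Dixon's ratio; chance gives about 1 in 20. Vim was at 2.83 in Wnt5a sample 2, which is 3 reads, against 1 read in the other Wnt5a samples. Snai1 was at 7.53 in Wnt5a sample 8, next to 3.77. Zeb1 was at 223 in empty sample 4, next to 246. The first 2 rest on a few reads, and the samples of a library are not independent.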

How the results depend on the processing

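Zeb2 was lower in all 16 alternatives (lowest log2 difference -1.22) and passed the threshold in 15 of them. Calls over all genes, members and related lists (main 254, 1 and 4) were 4377, 4 and 58 with 16 separate samples, 2095, 3 and 28 with the replicate block, and 2123, 3 and 27 with edgeR and the replicate block, an alternative added after the data were seen. They were 538, 2 and 6 with DESeq2 (Krt8 as the added member), 146, 0 and 2 without the filter, and 102, 1 and 2 with a minimum of 50. Without trend 158 genes passed. Leaving out one library, where the lone sample is assumed to vary like the others, gave 138 to 1098 genes, 1 to 2 members and 2 to 15 list genes; the most calls came without empty library B. Without empty library A or B Snai2 passed (adjusted p = 0.0422 and 0.0202). Without empty library A the log2 difference was 1.36 for Nes and -0.84 for Vcan. Without empty library B it was 2.41 for Nes, -0.74 for Krt80, -0.81 for Cdh9, 1.58 for Cdh11 and -0.51 for Cdh13. In the same fit it was -0.49 for Ctnna2, 0.98 for Fn1, -0.62 for Tgfbr3 and -0.54 for Tgfb1. Direction turned in fits without one library for 12 named genes: Cdh1 lay between -0.110 and 0.0624, Krt18 between -0.288 and 0.0106, Zeb1 between -0.0940 and 0.259, Jup between -0.124 and 0.0273, Foxa1 between -0.0404 and 0.0763, Esrp1 between -0.153 and 0.0189, Lmna between -0.0192 and 0.132, Cdh13 between -0.513 and 0.223, Vcan between -0.840 and 0.125, Tcf3 between -0.179 and 0.0284, Ctbp1 between -0.0465 and 0.0516 and Skil between -0.124 and 0.00214. Between sets A and B (main 916 genes, 0 members) there were 0 genes without the filter, 0 without trend and 0 without the group term, 395 with DESeq2, and 5939 with 4 members for 16 separate samples. Near 0, median centring turned Foxa1 (-0.00113), Ctnnb1 (-0.00202) and Ctbp1 (-0.0166), quantile normalization turned Cdh1 (0.0302) and Ctnnb1 (-0.00839), and DESeq2 turned Ctbp1 (-0.00112). With the median transcript length 6 of 10 genes kept their place in the order of levels in the empty libraries and 4 in the Wnt5a libraries. The cause of these changes was not tested.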
